A study of Mus musculus with 12 samples.

Results

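The line labelled TB14, with Trib1 and Bcl11a according to its labels, was compared with the line labelled Trib1, with Trib1 alone, across all named genes that were expressed above the array median. Members were the genes with a probe set brighter than the array median in 4 or more of the 8 arrays, which gave 10761 of the 17097 genes named on the array. The comparison used the 4 TB14 arrays and the 4 Trib1 arrays of a series of 12 arrays, the other 4 being from TB13, another line labelled as carrying Trib1 with Bcl11a. All of them are murine acute myeloid leukaemia cells kept in IMDM with fetal bovine serum and interleukin-3, and no treatment was given. The labels name no vector, promoter, clone or host strain, and they do not say whether the 4 arrays of a line came from separate cultures. Statistical tests thus rest on the spread between the arrays of 1 line, which may be technical, and the spread between independently made lines did not enter them.

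Trib1 encodes a pseudokinase that brings the transcription factor C/EBPalpha to a ubiquitin ligase, and its overexpression drives myeloid leukaemia in mice. Bcl11a encodes a zinc finger protein that recruits corepressors and recognises the sequence TGACCA, and it is known for silencing fetal globin and for its need in B cell development. PU.1, the product of Spi1, and C/EBPalpha together direct progenitors to the granulocyte and monocyte lineages. PU.1 binds purine-rich sites with a GGAA core, and C/EBP proteins bind palindromic sites of the type TTGCNNAA. The study asked how Bcl11a bears on transcription driven by PU.1.

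Promoter windows of 5 genes with large differences are shown because they hold the letters of the sites just described. They are RefSeq windows of the GRCm38.p6 build, 5′ to 3′ on the gene's strand, running across the annotated start of transcription. Capitals mark matches to GAGGAAGT for PU.1, TTGCNNAA for C/EBP or TGACCA for BCL11A on either strand. F13a1, Il1r2 and Cd300a were lower in TB14, and Mpo and S100a8 were higher. F13a1 has 2 such windows, and the one shown was picked by its number of matches, with ties settled by position. The other genes shown have 1 window each.
F13a1, chr13:37049164-37049463, minus strand: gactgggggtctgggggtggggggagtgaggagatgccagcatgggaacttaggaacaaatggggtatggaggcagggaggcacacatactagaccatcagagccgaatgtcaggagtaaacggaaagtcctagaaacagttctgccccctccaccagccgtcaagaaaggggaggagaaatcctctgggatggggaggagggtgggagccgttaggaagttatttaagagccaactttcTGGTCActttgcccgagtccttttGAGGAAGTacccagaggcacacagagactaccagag
Il1r2, chr1:40085843-40086142, plus strand: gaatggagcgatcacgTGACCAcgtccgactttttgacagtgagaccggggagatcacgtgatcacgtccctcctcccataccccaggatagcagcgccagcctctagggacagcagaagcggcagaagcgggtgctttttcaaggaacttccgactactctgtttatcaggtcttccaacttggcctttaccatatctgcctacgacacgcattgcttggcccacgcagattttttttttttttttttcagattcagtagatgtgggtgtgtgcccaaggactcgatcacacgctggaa
Cd300a, chr11:114889791-114890090, plus strand: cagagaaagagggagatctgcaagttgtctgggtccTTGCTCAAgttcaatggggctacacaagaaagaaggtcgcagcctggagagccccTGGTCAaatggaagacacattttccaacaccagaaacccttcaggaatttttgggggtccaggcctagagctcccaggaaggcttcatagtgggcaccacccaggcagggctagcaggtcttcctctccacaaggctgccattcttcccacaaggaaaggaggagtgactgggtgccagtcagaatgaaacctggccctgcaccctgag
Mpo, chr11:87793534-87793833, plus strand: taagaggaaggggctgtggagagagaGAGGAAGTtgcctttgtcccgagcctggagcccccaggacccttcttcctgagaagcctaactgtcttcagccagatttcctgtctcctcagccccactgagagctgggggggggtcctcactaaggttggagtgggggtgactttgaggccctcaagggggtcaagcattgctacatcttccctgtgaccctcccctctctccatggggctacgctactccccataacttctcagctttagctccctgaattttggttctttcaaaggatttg
S100a8, chr3:90668821-90669120, plus strand: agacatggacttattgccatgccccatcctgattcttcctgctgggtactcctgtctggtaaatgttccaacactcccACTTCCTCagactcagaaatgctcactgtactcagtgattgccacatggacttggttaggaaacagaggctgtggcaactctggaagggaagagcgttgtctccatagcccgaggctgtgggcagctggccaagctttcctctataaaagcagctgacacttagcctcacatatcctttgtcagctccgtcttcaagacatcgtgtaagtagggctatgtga
The F13a1 window held 1 match for PU.1 and 1 for BCL11A, that of Il1r2 held 1 for BCL11A, and that of Cd300a held 1 for C/EBP and 1 for BCL11A. The Mpo and S100a8 windows each held 1 match for PU.1. In these 5 windows no base lay in more than 1 match. A match describes letters in a window and is neither a bound site nor a cause of a difference.

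The same motifs were counted in the windows of all genes that the promoter table held, where a gene was counted if any of its windows had a match. TGACCA, which reads TGGTCA on the other strand, occurred in 37 of 165 genes that were lower in TB14 by 2-fold or more, a share of 22.4% (exact Clopper-Pearson 95% interval 16.3 to 29.6). It occurred in 7 of 90 genes that were higher by 2-fold or more, a share of 7.78% (3.18 to 15.4), and in 1167 of the 8745 tested genes with a window, a share of 13.3%. These intervals treat genes as independent, which genes that change together may not be. The differences between these shares were not tested. GAGGAAGT, or ACTTCCTC, occurred in 6.67% of the lower genes (3.37 to 11.6), 7.78% of the higher genes (3.18 to 15.4) and 3.96% of those tested. TTGCNNAA, or TTNNGCAA, occurred in 16.4% (11.1 to 22.9), 15.6% (8.77 to 24.7) and 9.83% in the same order. In the lower genes the share of every motif, and not of TGACCA alone, was above that over tested genes. Over all 27025 genes of the table the shares were 15.4% for TGACCA, 3.69% for GAGGAAGT and 12.2% for TTGCNNAA. The median GC content of the windows was 55.7% for lower genes, 58% for higher genes and 60.3% for tested genes, and there were 1.32, 1.34 and 1.27 windows per gene. The part of base composition and window number in these shares was not tested. Among genes with a single window, TGACCA occurred in 18.6% of 129 lower, 7.14% of 70 higher and 11.2% of 6971 tested genes.

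The 8 arrays were alike in overall scale. Their medians lay between 20.8 and 21.4 intensity units and their upper quartiles between 102 and 109. The 18 hybridization controls, transcripts added to each sample by the platform's protocol, had a median log2 change of 0.00103 between the lines. Across all probe sets the log2 values correlated at 0.999 to 0.9993 within the Trib1 line, at 0.9992 to 0.9993 within TB14, and at 0.9881 to 0.9884 between them. These correlations are across probe sets, which are not independent replicates. The number of arrays limited the precision.

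Both lines had the profile of myeloid cells with bright transcripts of some, but not all, basophil and mast cell markers. All 12 myeloid markers on the array, among them Ptprc, Spi1, Cebpa, Itgam and Csf2rb, were above the array median on all 8 arrays. Over all genes tested 35.4% were called higher in TB14 and 28.8% lower, against which marker counts are set. Of the 12 myeloid markers, 4 rose and 6 fell, with a median log2 change of -0.125. The rises were Mpo (3.28), Lyz2 (1.43), Csf3r, the receptor for granulocyte colony-stimulating factor (0.65), and Ctsg, cathepsin G (0.21). The falls were Csf1r, a receptor tyrosine kinase of monocytes (-1.29), the Fc receptor gene Fcgr3 (-0.85), the integrin gene Itgam (-0.72), Ptprc, which encodes CD45 (-0.48), Spi1 and Cebpa, while Csf2rb and Cd33 did not pass, with log2 changes of 0.0053 and 0.026. The summed intensity of the 12 was 12533 to 12709 in Trib1 and 14073 to 14306 in TB14. Cpa3, a mast cell carboxypeptidase, had mean intensities of 5973 in Trib1 and 6127 in TB14, and Gzmb, which encodes granzyme B, had 6685 and 7025. Mcpt8, a basophil protease, went from 1759 ± 16.9 in Trib1 to 1929 ± 18.5 in TB14 (mean ± SD, n = 4 arrays, as for all means given with an error), and Gata2, a transcription factor of stem and mast cells, rose by 0.33 on the log2 scale. Other mast cell genes fell, with log2 changes of -1.61 for Fcer1a, the alpha chain of the receptor for immunoglobulin E, and -1.15 for the chymase gene Cma1. The tryptase genes Tpsab1 and Tpsb2 and the mast cell protease genes Mcpt1, Mcpt2 and Mcpt4 exceeded the array median on none of the 8 arrays. These were 5 of the 11 such markers on the array. Of 6 mast cell and basophil markers tested, 4 rose and 2 fell, and the summed intensity of the 11 on the array was 9095 to 9201 in Trib1 and 9075 to 9213 in TB14.

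Markers of other lineages were dim for lymphoid and stromal cells in large part, with exceptions. Of 10 B cell markers, Cd22, Cd79a, Pax5 and Vpreb3 exceeded the median on all 8 arrays, the brightest being Cd22 at 62.7 in Trib1 and 55.9 in TB14, and of 9 T cell markers Cd3d, Cd3e and Cd8a did, with Cd3e at 65.9 and 62.8. The B cell markers summed to 232 to 247 in Trib1 and 219.6 to 234 in TB14. The B cell genes Cd79b, Ms4a1 and Ebf1, the T cell genes Cd4 and Cd8b1, and the stromal collagen genes Col1a1, Col1a2 and Col3a1 did not exceed the array median on any of the 8 arrays. Of the T cell markers, Cd3g fell from 68.98 ± 2.60 in Trib1 to 13.9 ± 0.844 in TB14, below the array median, and the summed intensity of 9 such markers went from 261 to 269.9 in Trib1 to 196 to 202 in TB14. Megakaryocyte markers were brighter, with 6 of 9 above the median on all 8 arrays and sums of 1277 to 1328 in Trib1 and 1331 to 1357 in TB14. Of 7 tested, Pf4, platelet factor 4, and the integrin gene Itgb3 rose by 0.75 and 0.47, and Itga2b and Gp6 changed by -0.47 and -0.12. The natural killer cell markers summed to 6768 to 6924 and 7085 to 7208, nearly all of it Gzmb, with Eomes at -0.92, and the stromal and endothelial markers to 972 to 1023 and 778 to 815, mostly Pecam1, which changed by -0.40. The summed intensity of 6 erythroid markers was 978 to 1029 and 1585 to 1622, which followed the alpha globin gene Hba-a1 with a log2 change of 0.76, while Klf1 and Slc4a1 were below the median. Eosinophil markers summed to 1284 to 1309 and 922 to 930.4, mostly through Siglecf, which fell by 0.53. Macrophage and dendritic cell markers summed to 944 to 956 and 712 to 735, mostly through Adgre1 at -0.50. Flt3, at -0.14, was the other of the 6 tested to be called, and its call was lost without Trib1 replicate 1 or 2 and without TB14 replicate 1 or 2 (limma adjusted p = 0.0587, 0.0608, 0.0599 and 0.0553). The other 4 tested did not pass, and Mrc1, Cd163 and C1qa did not exceed the median on any array. In samples of this kind fewer cells of one type and less RNA per cell cannot be told apart, and the part of these marker shifts in the results that follow was not tested.

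Bcl11a did not read higher in TB14 than in Trib1. The brightest of 4 Bcl11a probe sets read 21.5, 18.4, 16.4 and 14.4 on the Trib1 arrays and 13.9, 12.5, 15.7 and 13.3 on the TB14 arrays. Of the others, 1 read 9.64 to 10.98 and 8.34 to 9.68, 1 read 7.65 to 9.87 and 6.70 to 7.61, and 1 read 11.01 to 12.6 and 11.5 to 12.7, in the same order. All were near or below the array medians, and none was higher in TB14 without overlap. The 2 Trib1 probe sets lay between 14.4 and 28.6 on the 8 arrays. The labels do not say whether these probes lie within the sequences that were introduced, so the values do not check the labels. Spi1 fell by 0.37 and Cebpa by 0.26 on the log2 scale. Genes of the Y chromosome were dim in both lines, with mean intensities of the Eif2s3y, Kdm5d, Uty and Usp9y probe sets between 7.56 and 16.3. Xist, the RNA that coats the inactive X chromosome, went from 2179 ± 19.9 in Trib1 to 2018 ± 45.3 in TB14 on the probe set used, but its other probe sets disagreed in direction, so no change is stated for it. The median log2 change of the tested genes of a chromosome ran from -0.0311 for X, with 301 genes, to 0.0201 for chromosome 16, and no chromosome was shifted as a whole by more than that.

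**Figure D1:**
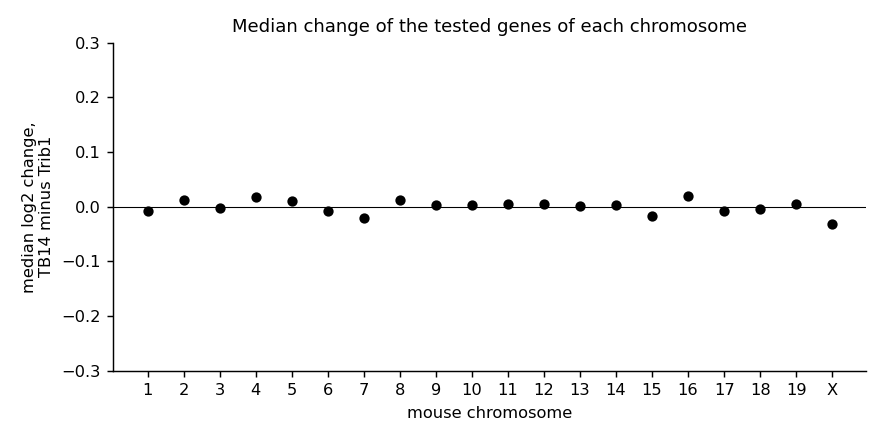
Median log2 change, TB14 minus Trib1, of the tested genes of each mouse chromosome, 1 point per chromosome. All 20 points lie between -0.0311 and 0.0201.

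Between the lines 6906 of the 10761 genes differed at an adjusted p under 0.05 (limma on log2 intensities with Benjamini-Hochberg adjustment), which is 64.2%. Of these, 3809 were higher in TB14, 35.4% of those tested, and 3097 were lower, 28.8%. This balance depends on the scaling of the arrays, with 4029 higher and 2813 lower under median scaling and 3358 higher and 3493 lower under cyclic loess. Most differences were small: 4303 of the called genes changed by less than 1.2-fold and 1788 by 1.2-fold to 1.5-fold. Within a line the SD of log2 values had a median of 0.0399 over genes. Some called changes were smaller than this, such as that of Psmb4 at -0.038. At 2-fold or more 318 genes, 2.96%, were called, with 115 higher (1.07%) and 203 lower (1.89%), and 57 changed by 4-fold or more, 22 up and 35 down. For 6307 genes, 58.6%, the 4 TB14 values did not overlap with the 4 Trib1 values. This held for all 115 higher and all 203 lower genes at 2-fold or more. Where a gene of this size is described below as without overlap, that is therefore no separate support for its change.

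The rises and falls of 2-fold or more started from different levels. The 115 higher genes had a median intensity of 55.6 in Trib1 and 204 in TB14, and the 203 lower genes had 275 and 85.3, while all other genes tested had 148 and 152. For 21 of the higher genes no Trib1 array exceeded its median, and for 25 of the lower genes no TB14 array did. Such genes passed the filter through the brighter line alone. With all 8 arrays required to exceed the median, 90 genes were higher and 172 lower by 2-fold or more. Of the rises named below, Mgst1, Cnn3, Stfa3, Aldh1b1, Wfdc21, Ahcyl2, Sgms2, Chst15, Gpr65 and Bag3 had no Trib1 array above its median. Of the falls named below, Xlr4b, Gzma, F13a1, Pkd2l1, Sprn, Zfp979, Ahrr, Rgl1, Cd3g, Txk, Tgfb3, Nlrc5 and Adora3 had no TB14 array above its median. The sizes of these changes depend on the constant added before taking logs. Over all genes tested, 69 exceeded the median on the 4 TB14 arrays and on no Trib1 array, and 76 on the 4 Trib1 arrays and on no TB14 array. The share of genes called grew with brightness, from 28.3% of genes under 50 intensity units in the brighter line to 84.8% of those over 1000. Genes at 200 to 1000 units held 51 of the rises and 108 of the falls of 2-fold or more. Log2 changes are of intensity plus 12.7, which understates the change of dim genes.

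**Figure D2:**
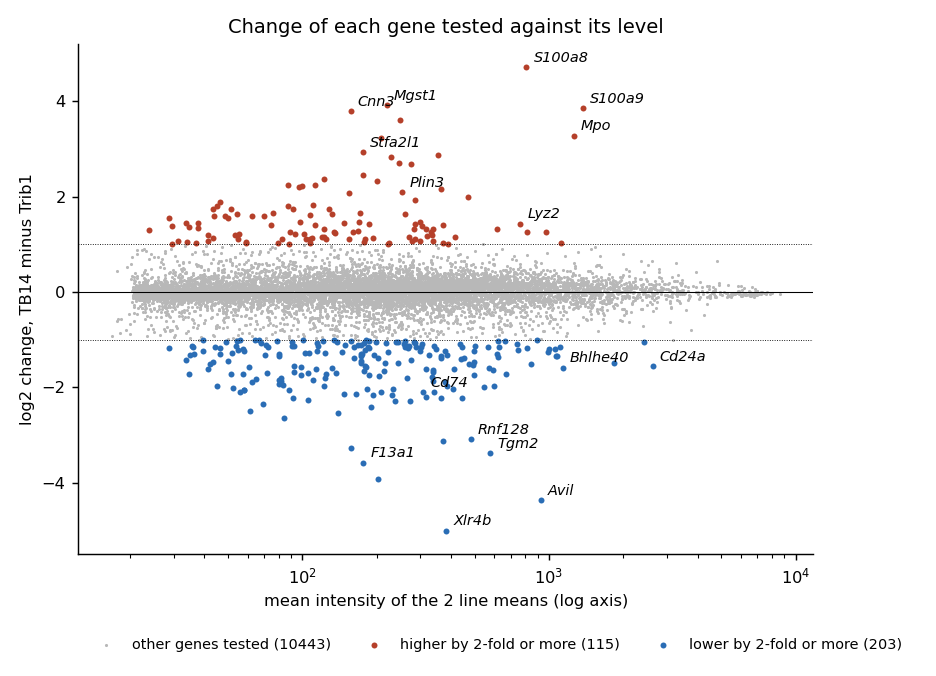
Log2 change, TB14 minus Trib1, of each of the 10761 tested genes (vertical axis) against the mean of the 2 line means in intensity units (horizontal log axis). Red points are the 115 genes higher and blue points the 203 genes lower by 2-fold or more, and dotted lines mark 2-fold. Xlr4b and Avil reach -5.00 and -4.37, and S100a8 reaches 4.71.

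The largest rises included genes of granulocyte precursors and neutrophils, detoxifying enzymes and several membrane proteins. S100a8 encodes a calcium-binding protein of neutrophil cytosol. It read 42.4, 48.9, 46.8 and 52.6 on the Trib1 arrays and 1584, 1608, 1531 and 1557 on the TB14 arrays. No TB14 value came near the Trib1 values, and the log2 change was 4.71 ± 0.036 (SE; adjusted p = 4.8e-31, limma). Its partner S100a9 changed by 3.85. Mpo, myeloperoxidase of primary granules, and Elane, neutrophil elastase, changed by 3.28 and 2.71. Lyz2, lysozyme M of granulocytes and macrophages, read 407, 421, 405 and 394 on the Trib1 arrays and 1118, 1105, 1140.0 and 1109.6 on the TB14 arrays. All 4 TB14 arrays were above all 4 Trib1 arrays, a ratio of means of 2.75.

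The cystatin-like stefins and related inhibitors rose beside these granule genes. Stfa2l1, a stefin A type inhibitor of cysteine proteases, read 33.9, 27.96, 30.3 and 32.2 on the Trib1 arrays and 321, 319.9, 312 and 327 on the TB14 arrays. The groups were far apart, and the log2 change was 2.93 ± 0.043 (SE; adjusted p = 1.9e-25 by limma). Stfa3, a near copy in the same gene cluster, went from 12.5 ± 0.752 in Trib1 to 80.3 ± 3.70 in TB14, with Trib1 values below the array median, and probes of such near-identical copies may read each other's transcripts. Wfdc21, a whey acidic protein type inhibitor, changed by 1.60. Other inhibitors went the other way: Slpi, the secretory leukocyte peptidase inhibitor, fell from 704 ± 30.6 in Trib1 to 239.5 ± 7.42 in TB14, and Itih5 changed by -1.48. Of 22 tested serpins, cystatins and other protease inhibitors, 8 rose and 9 fell, and of these 3 rose and 2 fell by 2-fold or more.

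Among the other large rises, Mgst1, a microsomal glutathione transferase, changed by 3.92 and the glucuronosyltransferase genes Ugt1a6a and Ugt1a9, which share exons and cannot be counted separately, by 3.61 and 2.45. Cnn3, the actin-binding calponin 3, read 9.97, 9.61, 9.95 and 10.7 on the Trib1 arrays and 299, 304, 293 and 316 on the TB14 arrays. The Trib1 values were below the array medians and the TB14 values well above, with a log2 change of 3.79, although a second probe set gave 1.86. Marcksl1, a membrane-bound substrate of protein kinase C, changed by 2.84, with dimmer probe sets at 1.15 and 3.15. Fundc1, an outer mitochondrial membrane receptor for mitophagy, changed by 3.22, the tetraspanin Cd81 by 2.36, Thy1, a surface glycoprotein of thymocytes and some progenitors, by 2.68, and Ms4a2, the beta chain of the immunoglobulin E receptor, by 2.88. Cbx6, a Polycomb chromobox protein, changed by 2.25, Chdh, choline dehydrogenase of mitochondria, by 2.24, and Oaf by 2.16. The 20 largest rises all passed with an adjusted p of 4.1e-18 or below (limma). They were picked by size from these same arrays, and Mgst1 and Cnn3 passed the filter through the TB14 arrays alone. Their p-values are thus no separate support.

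Bright genes that rose had varied functions. Lat, the adaptor that links antigen and Fc receptors to phospholipase C, went from 179.9 ± 4.99 in Trib1 to 756 ± 40.1 in TB14, and Lpxn, a paxillin-like adhesion protein, from 153 ± 5.00 in Trib1 to 446 ± 12.7 in TB14. Casp1, the inflammasome caspase that cleaves interleukin-1 beta, read 161, 165, 139 and 161 on the Trib1 arrays and 424, 408, 396 and 416 on the TB14 arrays. The TB14 arrays exceeded the Trib1 arrays throughout, by a ratio of means of 2.62. Noct, a circadian deadenylase-like phosphatase, changed by 1.42, Mpp1, a membrane scaffold of red cells and neutrophils, by 1.41, Nebl, an actin-binding nebulin relative, by 1.33, Fndc3b by 1.33 and Coro7, a coronin of the Golgi, by 1.31. Cenpv, a centromere protein, changed by 1.92. Pfkl, a phosphofructokinase of glycolysis, changed by 1.38, with other probe sets at 0.23 and 1.01. The scaffold gene Homer2 changed by 1.63, with a second probe set at 0.55.

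**Figure D3:**
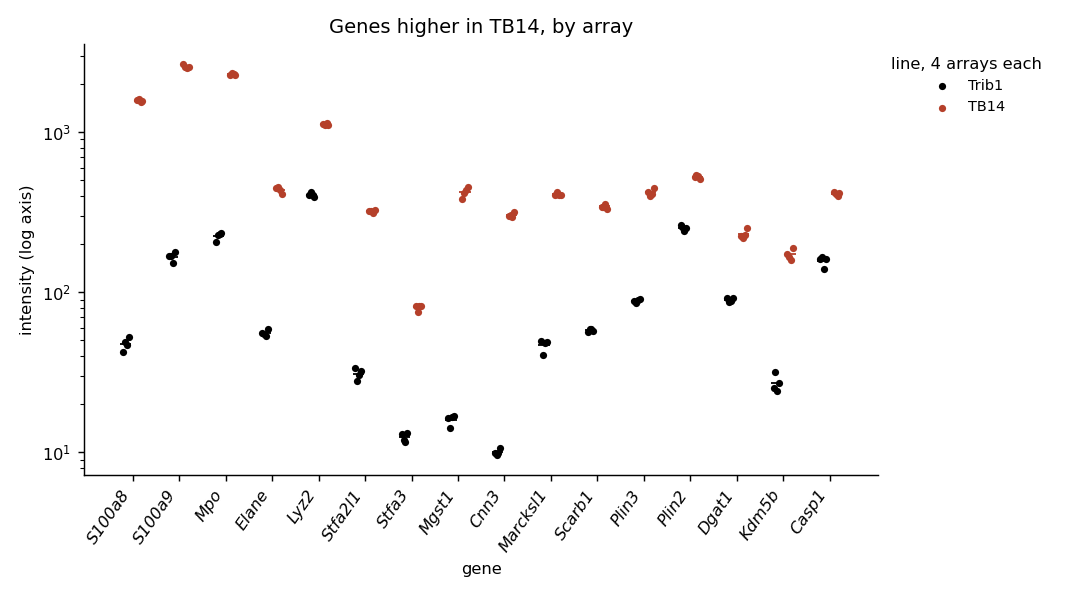
Intensity on a log axis of 16 genes that were higher in TB14, with each of the 4 Trib1 arrays (black) and 4 TB14 arrays (red) as a point and the line mean as a bar. For every gene shown the 4 TB14 points lie above the 4 Trib1 points.

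The largest falls included surface receptors, antigen presentation genes, crosslinking enzymes and actin-binding proteins. Avil, advillin, an actin-binding protein of the villin family, read 1759.9, 1754, 1781 and 1816 on the Trib1 arrays and 74.2, 74.1, 71.1 and 76.3 on the TB14 arrays. The values were far apart, with means that differed 24.1-fold and a log2 change of -4.37 ± 0.023 (SE; adjusted p = 4.8e-34 by limma). Tgm2, transglutaminase 2, which crosslinks proteins, read 1056, 1079.9, 1054 and 1049 on the Trib1 arrays and 91.6, 88.8, 93.4 and 89.4 on the TB14 arrays. Its TB14 values stayed above the array median, and the log2 change was -3.37. Rnf128, a membrane-bound ubiquitin ligase known from T cell anergy, changed by -3.09.

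Of the 20 largest falls, those that reached values below the array median were Xlr4b, Gzma, F13a1, Pkd2l1, Sprn, Zfp979 and Ahrr. Xlr4b, of the X-linked lymphocyte-regulated family, went from 755 ± 16.8 in Trib1 to 11.3 ± 0.177 in TB14 and has near-identical copies that the probes may not separate. Gzma, granzyme A, changed by -3.92 and F13a1, a coagulation transglutaminase subunit found in monocytes and platelets, by -3.58. The channel gene Pkd2l1 changed by -3.27, the shadow of prion gene Sprn by -2.64, the zinc finger gene Zfp979 by -2.48 and Ahrr, the repressor of the aryl hydrocarbon receptor, by -2.35. Cox6a2, a muscle-type subunit of cytochrome c oxidase, changed by -2.21 and Hgfac, the activator of hepatocyte growth factor, by -2.23. All of the 20 largest falls passed with an adjusted p of 6e-21 or below (limma). They were picked by size from these same arrays, and those below the array median in TB14 passed the filter through the Trib1 arrays alone. Their p-values are thus no separate support.

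Several receptors of myeloid cells were among the larger falls. Cd300a, an inhibitory receptor of the CD300 family, read 559, 555, 557 and 569.8 on the Trib1 arrays and 123, 120.2, 116 and 124 on the TB14 arrays. Its values did not overlap, with a log2 change of -2.10, while a dimmer probe set gave -0.56. Cd300lf and Cd300lb of the same family changed by -2.29 and -1.75, Pilrb1, a paired activating receptor, by -2.22, and Clec5a, a lectin receptor that signals through DAP12, by -1.97. Cd7, a surface protein of T cell and natural killer precursors, changed by -3.11. Il1r2, the decoy receptor for interleukin-1, fell from 964 ± 12.2 in Trib1 to 235 ± 5.23 in TB14, and Il18r1, a chain of the interleukin-18 receptor, from 419 ± 10.6 in Trib1 to 111 ± 0.889 in TB14.

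The falls included genes of MHC class II presentation, of which no list was counted. H2-Ab1, H2-Aa and H2-Eb1, which encode class II chains and lie next to each other in the RefSeq order, made the only run of 3 neighbouring tested genes that changed by 2-fold or more in one direction. H2-Aa read 319, 315, 342 and 339 on the Trib1 arrays and 55.2, 48.2, 55.3 and 48.8 on the TB14 arrays. The groups were apart by a ratio of means of 6.34, Trib1 over TB14. H2-Ab1 and H2-Eb1 changed by -2.13 and -2.15, and Cd74, the invariant chain, by -2.10. H2-DMa, which loads peptides, changed by -2.29, with a dimmer probe set at -0.84. The sum of the macrophage and dendritic cell markers given above was also lower, mostly through Adgre1, and its part in these falls was not tested.

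**Figure D4:**
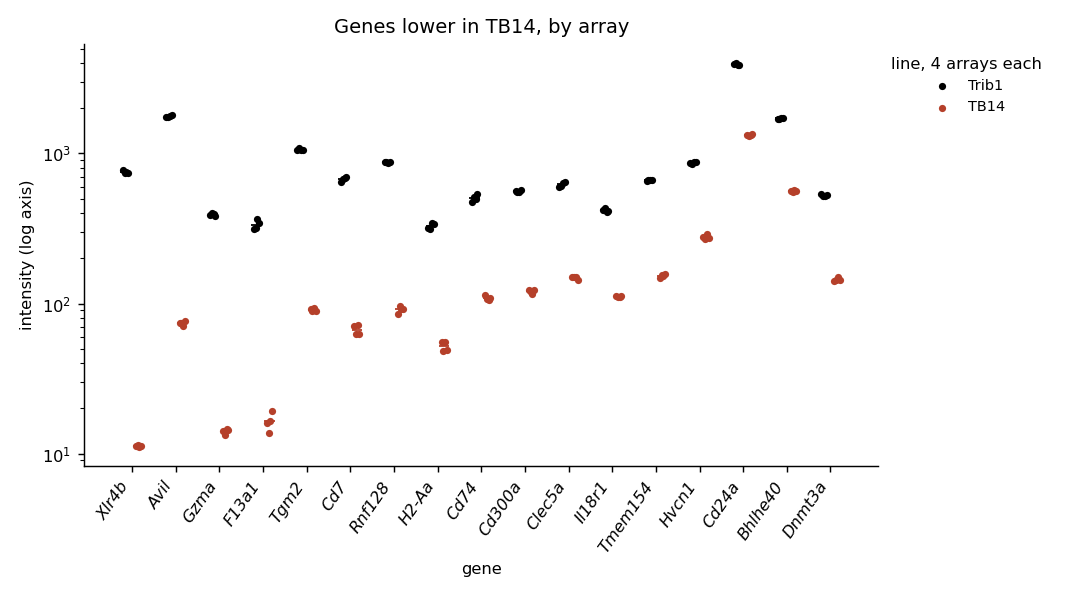
Intensity on a log axis of 17 genes that were lower in TB14, with each of the 4 Trib1 arrays (black) and 4 TB14 arrays (red) as a point and the line mean as a bar. For every gene shown the 4 TB14 points lie below the 4 Trib1 points.

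To describe functions beyond single genes, 58 lists by function were counted, and each count is set against the 35.4% of tested genes that were higher and the 28.8% that were lower. The lists name 2096 genes, of which 1446 were tested. Together with the 10 lineage marker lists they hold 35 of the 115 genes higher by 2-fold or more and 47 of the 203 lower ones. Lists were not tested as sets, and shares are descriptions of these arrays. Members described as having risen, fallen or changed passed limma at an adjusted p of 0.017 or below on the probe set used.

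**Figure D5:**
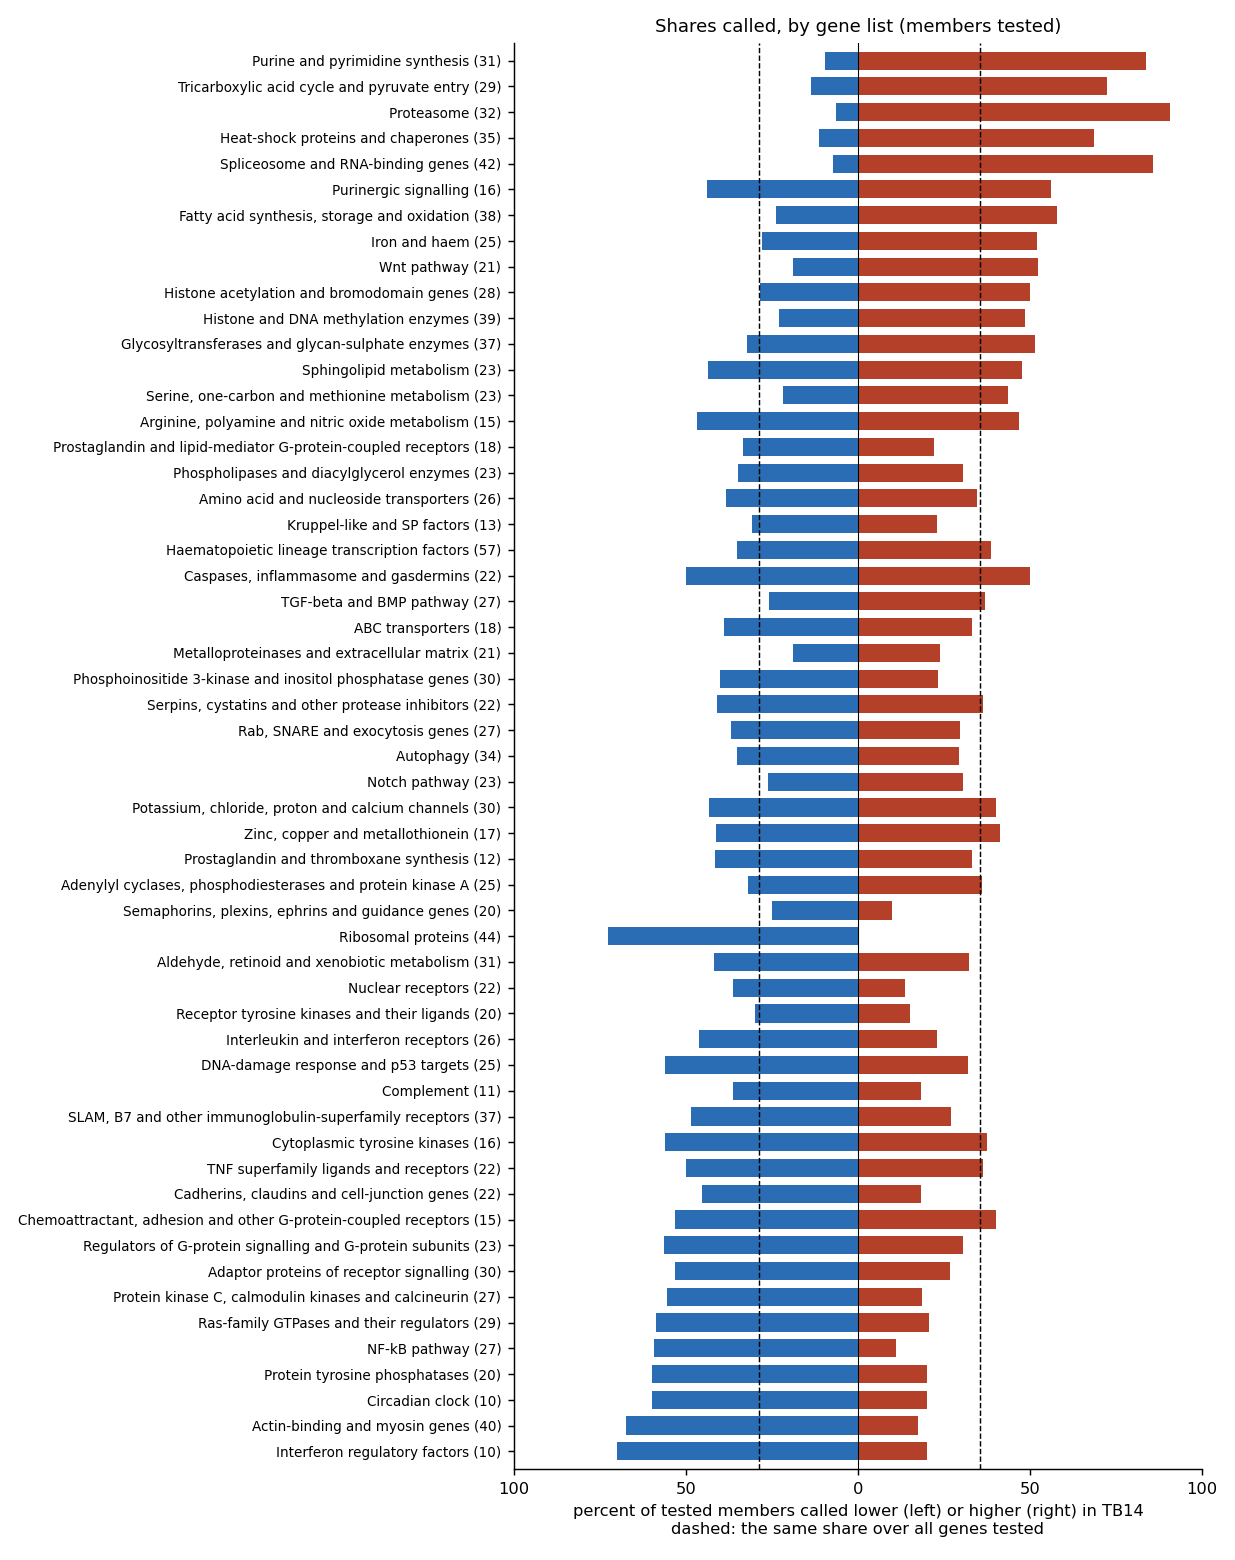
Percent of the tested members of the function lists shown that were called higher (right, red) or lower (left, blue) in TB14, with the number tested after the list's name and lists of at least 10 tested genes ordered by their median change. Dashed lines mark the shares over all genes tested, 35.4% and 28.8%. Proteasome, spliceosome and nucleotide synthesis genes reach the farthest to the right, and ribosomal proteins reach the farthest to the left.

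Genes of biosynthesis and protein turnover shifted upward by small amounts. Of 31 tested genes of purine and pyrimidine synthesis, 26 rose and 3 fell, with a median log2 change of 0.2 against 0.00106 over all genes tested. Tk1, thymidine kinase 1, and Rrm1, the large subunit of ribonucleotide reductase, rose by 0.67 and 0.56. The members that fell included Samhd1, which breaks down deoxynucleotides, at -0.54, and Rrm2b, the p53-inducible reductase subunit, at -0.39, with -0.16 on another probe set. Proteasome genes gave 29 rises and 2 falls of 32 (median 0.155), among them the regulatory subunit genes Psmd1 and Psmd7 at 0.35 and 0.46, the latter at 0.07 on a dimmer probe set. The 2 that fell, Psmb1 and Psmb4 of the catalytic core, changed by -0.07 and -0.04. The call of Psmb4 was lost under median scaling (limma adjusted p = 0.163) and without Trib1 replicate 2 (0.0734).

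Spliceosome and RNA-binding genes gave 36 rises and 3 falls of 42 (median 0.138), led by Snrpa1, a protein of the U2 particle, which went from 540.1 ± 11.97 in Trib1 to 875 ± 17.00 in TB14. Heat-shock proteins and chaperones gave 24 rises and 4 falls of 35 (median 0.14), with the co-chaperone genes Bag3 and Bag2 at 0.90 and 0.88, while the mitochondrial chaperone Hspa9 fell by 0.12. Genes of the tricarboxylic acid cycle and pyruvate entry gave 21 rises and 4 falls of 29 (median 0.177). Ogdh, a subunit of oxoglutarate dehydrogenase, read 114, 117, 120.0 and 119.7 on the Trib1 arrays and 191, 206, 202 and 196 on the TB14 arrays. The groups did not overlap, though the ratio of means was no more than 1.69. Me2, mitochondrial malic enzyme, rose by 0.44, and Pcx, pyruvate carboxylase, fell by 0.25.

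Ribosomal protein genes moved the other way by even smaller amounts. Of 44 tested, 32 fell and the other 12 did not pass the test, and the median log2 change was -0.047, close to the median within-line SD of 0.0399. Rpl14 had the lowest value, -0.35, and went from 429 ± 3.47 in Trib1 to 334 ± 9.47 in TB14. Under other scalings of the arrays the median of these genes lay between -0.0529 and -0.0267, and it was -0.0654 with the mean of a gene's probe sets and -0.0771 with the probe set of highest spread.

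Lipid storage genes were among the stronger rises. Plin3, a coat protein of lipid droplets, read 88.4, 85.3, 89.9 and 91.2 on the Trib1 arrays and 422, 399, 411 and 448 on the TB14 arrays. Every TB14 array was above every Trib1 array, with a log2 change of 2.09 ± 0.034 (SE; adjusted p = 1.7e-24, limma). Plin2, another droplet coat protein, went from 253 ± 9.34 in Trib1 to 524 ± 13.4 in TB14, and Dgat1, which makes the last step of triglyceride synthesis, from 89.5 ± 2.42 in Trib1 to 231 ± 14.99 in TB14. Scarb1, the scavenger receptor that takes up cholesterol from high-density lipoprotein, read 56.4, 58.6, 59.4 and 57.4 on the Trib1 arrays and 343, 342, 356 and 331 on the TB14 arrays. Its values did not overlap, with a log2 change of 2.33. Of 38 tested genes of fatty acid synthesis, storage and oxidation, 22 rose and 9 fell. Those that fell included the mitochondrial genes Hadh, an enzyme of beta-oxidation, at -0.64, and Acss1, which activates acetate, at -0.90.

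Sphingolipid genes split, with 11 rises and 10 falls of 23. Sgms2, a sphingomyelin synthase, went from 8.31 ± 0.274 in Trib1 to 49.02 ± 6.45 in TB14, with Trib1 values below the array median, and Cers4, a ceramide synthase, changed by -1.44, or -0.69 on its other probe set. Lpcat2, which makes platelet-activating factor, fell from 1384 ± 26.7 in Trib1 to 831 ± 19.9 in TB14, with a dimmer probe set at -0.34. Cyp4f18, a hydroxylase of leukotriene B4 and other fatty acids, changed by -1.99. In the prostaglandin list 4 genes rose and 5 fell of 12, with Tbxas1, thromboxane synthase, at -0.57 and Ptgr1, a reductase of prostaglandins and leukotrienes, at 0.57.

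Enzymes of amino acids and purines were also found among the rises. Ass1, argininosuccinate synthase, which remakes arginine from citrulline, read 33.7, 29.8, 31.4 and 32.98 on the Trib1 arrays and 141, 157, 135 and 141 on the TB14 arrays. The TB14 arrays were all higher, by a log2 change of 1.80. Psph, the last enzyme of serine synthesis, went from 64.3 ± 2.79 in Trib1 to 179 ± 10.6 in TB14, whereas Aldh1l2, a mitochondrial enzyme of folate metabolism, fell from 180.0 ± 12.5 in Trib1 to 66.3 ± 4.14 in TB14. Ahcyl2 changed by 1.58 on the probe set used and by -0.03 and 0.16 on others. Sat1, which acetylates polyamines for their breakdown, changed by -0.98 and Aldh1b1, a mitochondrial aldehyde dehydrogenase, by 1.64.

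In purinergic signalling 9 genes rose and 7 fell of 16, so that every tested member was called. Ada, adenosine deaminase, which removes adenosine, read 46.8, 50.7, 44.4 and 43.8 on the Trib1 arrays and 182, 153, 178 and 161 on the TB14 arrays. Its TB14 values were all above its Trib1 values, at a log2 change of 1.61. P2rx7, an ATP-gated channel, rose by 1.26, with other probe sets at 0.42 and 1.23. The channel gene P2rx1 and the adenosine receptor gene Adora3 changed by -0.74 and -0.82. Caspase, inflammasome and gasdermin genes likewise were all called, 11 up and 11 down of 22. Beside the rise of Casp1, the sensor gene Nlrp3 fell from 153 ± 24.8 in Trib1 to 81.7 ± 4.67 in TB14 and Nlrc5, a regulator of MHC class I genes, changed by -0.85.

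Iron and haem genes gave 13 rises and 7 falls of 25. Tfr2, transferrin receptor 2, went from 142 ± 12.03 in Trib1 to 305 ± 11.7 in TB14, and Bach1, a haem-sensing repressor, changed by -0.62, with -0.19 on another probe set. Slc25a37, the mitochondrial iron importer, changed by -0.27 on the probe set used and by 0.21 and -0.23 on others. Zinc, copper and metallothionein genes split evenly, 7 and 7 of 17, with the zinc importers Slc39a8 and Slc39a10 at 0.81 and 0.57. Glycosyltransferases and glycan-sulphate enzymes gave 19 rises and 12 falls of 37. Among them Chst15, Mgat5 and St3gal2, which sulphate, branch and sialylate glycans, rose by 1.34, 1.14 and 1.14, and B4galnt2, a blood-group type transferase, changed by -2.26, or -0.59 on a second probe set.

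Signalling genes of many receptors shifted downward. Of 27 NF-kB pathway genes tested, 16 fell and 3 rose (median -0.145), and Irak2, a kinase downstream of Toll-like receptors, went from 298 ± 13.1 in Trib1 to 136 ± 4.47 in TB14. Ikbke, a kinase of the interferon pathway, rose by 0.90. Protein kinase C, calmodulin kinase and calcineurin genes gave 15 falls and 5 rises of 27 (median -0.123). Prkcb, protein kinase C beta, read 502, 596, 564 and 572 on the Trib1 arrays and 207, 209, 218 and 229 on the TB14 arrays. The TB14 arrays were lower without overlap, at a log2 change of -1.32.

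Ras-family genes and their regulators gave 17 falls and 6 rises of 29 (median -0.125). Rgl1, an exchange factor for Ral, changed by -2.10 and Rasgrp1, an exchange factor activated by diacylglycerol, by -1.48, with other probe sets at -0.72 and -0.22. Adaptor genes gave 16 falls and 8 rises of 30 (median -0.115). Sla, a Src-like adaptor that dampens receptor signalling, fell from 1401 ± 30.8 in Trib1 to 604 ± 12.8 in TB14, Pstpip2, an F-BAR protein that restrains inflammation, changed by -1.13 and the adaptor Dok3 by -1.02. Protein tyrosine phosphatase genes gave 12 falls and 4 rises of 20 (median -0.163), including Ptpn22, a brake on Src kinases, at -0.60, while Ptp4a3 rose by 0.60. Among cytoplasmic tyrosine kinases Fyn rose from 116 ± 5.36 in Trib1 to 271 ± 17.01 in TB14 and Txk, a Tec kinase, changed by -1.46.

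G-protein subunits and their regulators gave 13 falls and 7 rises of 23, with Gna15, a G alpha subunit of haematopoietic cells, at -1.09. Pik3r5, the regulatory subunit of phosphoinositide 3-kinase gamma, changed by -1.03. Among the receptors themselves, Gpr171 and Gpr34 fell by 0.88 and 0.69, Ffar2, a receptor for short-chain fatty acids, fell from 1198 ± 32.7 in Trib1 to 588 ± 17.4 in TB14, and the adhesion receptor Adgrg1 and the proton sensor Gpr65 rose by 1.14 and 1.30. Gpr183, an oxysterol receptor that guides lymphocytes, rose by 2.21, with a second probe set at 0.48. These receptor lists gave 8 falls and 6 rises of 15 and, for lipid mediators, 6 falls and 4 rises of 18.

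Actin-binding and myosin genes gave 27 falls and 7 rises of 40 (median -0.186). Myo10, a motor of filopodia, read 229, 247, 246 and 239.6 on the Trib1 arrays and 79.3, 84.4, 83.2 and 90.4 on the TB14 arrays. The values of the lines did not overlap, and the log2 change was -1.38. Evl, which elongates actin filaments, changed by -1.05. Tmsb10, a thymosin that binds actin monomers, rose by 0.65 on the probe set used. It changed by -0.28 on a dimmer one and by 1.25 on another. Of the cell-junction genes, Ctnna1, alpha-catenin, rose from 75.6 ± 5.15 in Trib1 to 267 ± 5.44 in TB14, and Dsp, desmoplakin, fell from 377 ± 11.96 in Trib1 to 160.0 ± 4.22 in TB14.

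Immunoglobulin-superfamily and related receptors gave 18 falls and 10 rises of 37. Cd24a, a heavily glycosylated surface protein of immature haematopoietic cells, read 3964, 3992, 3873 and 3896 on the Trib1 arrays and 1322, 1315, 1334 and 1345 on the TB14 arrays. It remained far above the array median in TB14 without overlap, at a ratio of means of 2.96, Trib1 over TB14. Cd96, a receptor for nectins, and Cd244a, a SLAM receptor of natural killer cells, changed by -2.09 and -1.40. Ceacam1 and Ly9 rose by 0.86 and 0.66. In the TNF superfamily 11 fell and 8 rose of 22, with the CD30 ligand gene Tnfsf8 at -1.23 and Tnfrsf21 at 0.74.

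Some secreted and membrane-bound factors were among the falls. Cfp, properdin, which stabilises the complement convertase, fell from 1253 ± 32.1 in Trib1 to 431 ± 11.1 in TB14, and Hbegf, a ligand of the EGF receptor, from 158 ± 14.1 in Trib1 to 38.3 ± 0.976 in TB14. Nrp1, a coreceptor for semaphorins and VEGF, changed by -1.84, with other probe sets at -0.85 and -1.13. Sema4b changed by -1.65, with another probe set at -0.63. In the TGF-beta pathway, where 10 rose and 7 fell of 27, Smad3, which carries the signal to the nucleus, rose by 1.11, whereas the ligand gene Tgfb3 and the induced matrix gene Tgfbi fell by 1.15 and 1.16. The receptor gene Tgfbr1 changed by -1.09, or -0.28 on a dimmer probe set. Plaur, the urokinase receptor, rose from 30.1 ± 1.01 in Trib1 to 122 ± 3.79 in TB14, and Mmp8, neutrophil collagenase, from 93.1 ± 4.63 in Trib1 to 215 ± 5.16 in TB14.

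Granule release and channel genes gave mixed counts. Hvcn1, the voltage-gated proton channel that supports the oxidative burst, read 858, 847, 881 and 878 on the Trib1 arrays and 275, 268, 291 and 274 on the TB14 arrays. TB14 was lower on every array, at a log2 change of -1.60. Rab37, a small GTPase of secretory granules, fell from 787 ± 7.73 in Trib1 to 347 ± 3.98 in TB14, and Lyst, mutated in Chediak-Higashi syndrome, which has giant granules, changed by -1.12. Rab and exocytosis genes as a list gave 8 rises and 10 falls of 27, and channel genes 12 and 13 of 30. In autophagy 10 rose and 12 fell of 34, with Ulk1, the starting kinase, at -0.93 and Wipi2 at 0.69.

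Lineage transcription factors split, with 22 rises and 20 falls of 57 and a median of 0.00204. Bhlhe40, a basic helix-loop-helix repressor, read 1695, 1705, 1716 and 1722 on the Trib1 arrays and 560.0, 553, 573 and 563 on the TB14 arrays. The 2 lines were apart on all arrays, at a log2 change of -1.58. Id2, an inhibitor of E proteins, and the immediate early gene Egr1 changed by -1.72 and -1.88, Nfil3 by -1.13 and the Kruppel-like factor gene Klf2 by -1.20. Aff3, an elongation factor relative found in leukaemia fusions, rose from 445 ± 11.6 in Trib1 to 846 ± 11.4 in TB14. Of 10 interferon regulatory factor genes 7 fell and 2 rose (median -0.28), with Irf8, a factor of monocyte and dendritic cell development, at -0.75 and Irf1 at -0.63. Circadian genes gave 6 falls and 2 rises of 10 (median -0.174), led by Arntl, which encodes BMAL1, at -0.78, with a dimmer probe set at -0.10.

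Histone and DNA methylation enzymes gave 19 rises and 9 falls of 39, and acetylation and bromodomain genes 14 and 8 of 28. Kdm5b, a demethylase of histone H3 lysine 4, read 25.1, 31.9, 24.3 and 26.99 on the Trib1 arrays and 174, 166, 159 and 189.8 on the TB14 arrays. The rise was 2.22 on the log2 scale without overlap, against 0.61 on a dimmer probe set. Dnmt3a, a DNA methyltransferase mutated in human leukaemia, read 536, 517, 519 and 525 on the Trib1 arrays and 141, 143, 151 and 143 on the TB14 arrays. It fell without overlap by 1.78, against -0.64 on a second probe set and -1.29, -1.20 and -1.63 on others. Kdm7a rose by 1.25, with 0.19 and 1.38 on other probe sets. The bromodomain gene Brd3 rose by 0.73, with 0.35, 0.41 and 0.50 on others.

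DNA-damage and p53 target genes gave 14 falls and 8 rises of 25, with the stress factor gene Ddit3 falling from 356 ± 14.7 in Trib1 to 161 ± 3.50 in TB14. Interleukin and interferon receptor genes gave 12 falls and 6 rises of 26, Wnt pathway genes 11 rises and 4 falls of 21, and Notch pathway genes 7 rises and 6 falls of 23. In the Notch list the receptor gene Notch1 changed by -0.88, with -0.42 on another probe set.

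Values of the TB13 line are given beside some of these genes, on arrays whose upper quartiles were 71.8 to 72.5, and TB13 and TB14 would share the Trib1 arrays in any comparison. The genes given are examples and not a count. S100a8 read 24.5 in TB13, Stfa2l1 22.5 and Lyz2 319, against TB14 means of 1569.8, 320.1 and 1118. Other large rises also read above Trib1 in TB13. Mpo read 853 in TB13, Fundc1 222, Thy1 214 and Cnn3 58.3, against Trib1 means of 225.6, 30.0, 65.4 and 10.1. Their TB14 means were 2296, 386, 487 and 303. Xlr4b read 459.7 in TB13 against 11.3 in TB14, and Cox6a2 388 against 104. Tgm2 read 91.6 in TB13 and 90.8 in TB14, both far below the Trib1 mean of 1060.0. Plin3, higher in TB14, read 129.5 in TB13 against a Trib1 mean of 88.7. Ada, also higher in TB14, read 41.9 in TB13 against a Trib1 mean of 46.4. These values stand side by side without a test, since the scale of the arrays differed.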

How the data were processed

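RNA of 12 samples was measured on oligonucleotide arrays after biotin labelling of cRNA. The deposited values are linear intensities that the authors computed in MAS5 (source: the submitters' processing notes), whose version and scaling target those notes do not state. Of 45141 probe sets, 28898 had 1 gene in the platform annotation, 551 several, 15588 none, and 104 were controls, which were left out. Probe sets above the array median on at least 4 of the 8 arrays were kept, and each gene was read from its kept probe set with the highest mean log2 value. Log2(intensity + 12.7), with 12.7 taken as the 25th percentile over the 12 arrays, was fitted for the TB14 and Trib1 arrays with limma 3.58.1 (lmFit, eBayes with trend) in R 4.3.3, without further normalization. The threshold was an adjusted p under 0.05 by Benjamini-Hochberg over all 10761 genes.

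Genes named were taken from 278 given by rule: the 20 largest changes each way, the 15 largest with line means over 100 in both lines, up to 4 called members each way of each list at 2-fold or more, otherwise up to 2, the introduced genes with Spi1 and Cebpa, and runs of neighbouring genes, passing over clone identifiers. The 20 and the 15 largest were taken only among called genes whose 4 TB14 values did not overlap with the 4 Trib1 values. For them non-overlap was fixed by the choice. Marker genes given for the cell type were named as list members. The members and lists were chosen with earlier results of these data known. Arrays have no read depth. On simulated data for this comparison, with 50 genes changed per fold size, 94% of 1.2-fold and 100% of 1.5-fold changes were recovered, and 6 unchanged genes were called. Between the lines 6906 genes were called, far more than were changed there, so these figures do not give the reliability of those calls. Alternatives covered scaling, filter, constant, variance model, probe set choice, block and single arrays. Figures used matplotlib 3.10.9. The result of 1 gene list is not reported here.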

Additional observations from a re-analysis of the deposited data

Results flagged for a closer look

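In 10 of 382 groups of 4 arrays, 1 array stood far from the other 3 by Dixon's test, of which chance flags about 1 in 20, so the number is no more than chance gives. The statistic is the gap to the nearest array over the group's range. A high value marks an array apart. In the Trib1 line it was 0.841 for Casp1, with replicate 3 at 139 against 161 to 165, and 0.941 for H2-Eb1, with replicate 2 at 350.5 against 312 to 314. It was 0.874 for Marcksl1, with replicate 2 at 40.3 against 48.2 to 49.3, and 0.948 for Mgat5, with replicate 4 at 76.2 against 69.6 to 70.0. Flt3 gave 0.84, with replicate 4 at 24.1 against 29.4 to 30.4, and Mpp1 gave 0.896, with replicate 1 at 211 against 191 to 193. In TB14 it was 0.906 for Marcksl1, with replicate 2 at 424 against 404 to 406, 0.831 for Rrm1, with replicate 3 at 1919.8 against 1892 to 1897, 0.925 for Stfa3, with replicate 2 at 74.8 against 81.8 to 82.4, and 0.835 for Zfp979, with replicate 4 at 8.42 against 9.97 to 10.3. The arrays that stood apart differed from gene to gene.

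Probe sets without a single gene name in the annotation also differed between the lines. Of 5978 that were tested, 60 were higher and 79 lower in TB14 by 2-fold or more, and they entered no count of genes.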

How the results depend on the processing

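Across 22 alternatives the counts of genes higher and lower in TB14 stayed within 1.5 times the values reported, except under a test against a 2-fold threshold, which called 86 higher and 160 lower genes by its construction. Counts of 2-fold changes fell to 61 higher and 129 lower with a constant of 50 added before taking logs, which shrinks the changes of dim genes. The gap between the highest and lowest chromosome median was 0.0512 and became 0.013 without the filter, when more dim genes entered. Of 191 genes named by rule, 112 were counted as keeping their direction and call under every alternative. Another 74 were counted as losing the call under the 2-fold threshold test and no other. The gene Trib1 is 1 of the 191, but it was not called as reported and neither description holds for it. The call of Psmb4 was lost under median scaling, with 12 arrays in 1 model (adjusted p = 0.0655), without the variance trend (adjusted p = 0.106) and without Trib1 replicate 2. With 12 arrays in 1 model the calls of Cd22, Flt3 and Gp6 were lost (adjusted p = 0.0933, 0.122 and 0.065), as was that of Cd22 without Trib1 replicate 1 (0.0561). Xist turned to 0.022 with the mean of its probe sets and to 0.46 with the probe set of highest spread. The probe set used for the gene Trib1, not called as reported, passed under quantile, median and cyclic loess scaling and without Trib1 replicate 2 (limma adjusted p = 0.0432, 0.0438, 0.0325 and 0.0194). No list median beyond 0.1 in size changed its sign. The labels do not say whether the replicate numbers pair the arrays. Deviations of same-numbered arrays correlated at 0.0112 to 0.12, and 2 of 4 Trib1 arrays correlated best with their own number. These values are too few to settle it. With the replicate block 3837 genes were higher and 3130 lower.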

Other observations

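Of the 190 called genes that the text names by rule, 73 had a second probe set that also passed the filter. For 4 of these 73 a second probe set gave the opposite sign. Some called markers that the text names, such as Csf3r, Ctsg and Cpa3, were not among the 190. For 29 genes a second probe set showed a much smaller log2 change, under 0.5 of the reported one, or the opposite sign.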
